A study of Homo sapiens with 12 samples.

Results

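DNA replication and G1/S genes were followed across cells treated with SOX11 siRNA, cells treated with control siRNA and untreated cells of 1 lymphoma line. The group holds 41 genes, chosen by name: the licensing and helicase proteins of replication origins, the polymerases and their clamp, the enzymes of deoxynucleotide synthesis, the factors that rebuild chromatin behind the fork, and the cyclins E and E2F factors that open S phase. Each gene was represented by 1 probe set, the brightest of those whose annotation gives its symbol alone. Differences between groups had no part in that choice of probe set, but the genes were named with earlier results of these data known. All 41 were measured, out of 18417 genes with such a probe set and 33297 probe sets on the array. Their mean signals over the 12 arrays lay between 132 for E2F2 and 2762 for MCM7, above the highest median of any array (91.8), so that all 41 also passed a filter on dim probe sets.

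Granta 519 is an established cell line of mantle cell lymphoma (MCL), a B cell malignancy, and it expresses the transcription factor SOX11. Cells received 100 pmol of SOX11 siRNA or 100 pmol of a control siRNA, each by electroporation of 4000000 cells in a nucleofector solution, while the third group was left untreated. RNA was harvested 20 hours after transfection from individual transfections, with 4 arrays per group. SOX11 siRNA against control siRNA compares silencing within electroporated cells, whereas the comparisons with untreated cells carry electroporation and siRNA together, since the labels name no mock electroporation. All arrays came from 1 cell line, so the p-values measure the spread between these samples.

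Replication is prepared in G1, when the origin recognition complex, CDC6 and CDT1 load the MCM2-7 helicase onto DNA, and it begins when CDC45 and the GINS complex turn that helicase into a moving fork. Most of these genes are transcribed in a wave before S phase by E2F factors, which the retinoblastoma protein holds back until cyclin-dependent kinases phosphorylate it. Mantle cell lymphoma is known for the translocation that drives cyclin D1, a partner of those kinases, and the share of cells in cycle is a marker of how aggressive the disease is.

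The silencing itself was visible on the arrays. SOX11 had signals of 227, 229, 188 and 225 in SOX11 siRNA arrays, against 1096, 1191, 1112 and 1026 in control siRNA arrays and 1028, 978, 978 and 1041 in untreated arrays. The B cell genes MS4A1, CD79A, CD79B and PAX5 and the cyclin D1 gene CCND1 were bright in all groups, and CD5, a marker of the disease, was dim (group means of 49.1, 42.7 and 54.2 in SOX11 siRNA, control siRNA and untreated arrays). The median signal of an array was 69.2 to 91.8, lowest in SOX11 siRNA replicate 3, and 73 to 144 probe sets per array were at 0.

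At 20 hours after transfection none of the 41 genes passed the threshold between SOX11 siRNA and control siRNA, whereas both electroporated groups lay below untreated cells across most of the list. Between SOX11 siRNA and control siRNA arrays 0 of 41 genes were called at an adjusted p under 0.05 (limma with Benjamini-Hochberg adjustment over 33297 probe sets), where 0.183% of all probe sets were called (0.18% lower and 0.003% higher). The log2 fold changes of the 41 genes ran between -0.34 (UHRF1) and 0.15 (POLD1), with a median of -0.019 beside 0.0061 over all probe sets. Below 0 lay 24 of them (58.5%), against 47.8% of all probe sets. Of the probe sets at or above the median signal 39.0% lay below 0, with a median of 0.030. UHRF1 had the only unadjusted p under 0.05 (0.0458, adjusted p = 1), on the lower side, where 2.77% of all probe sets lay, against 1.49% on the higher side. No gene had 4 SOX11 siRNA arrays outside the range of the 4 control siRNA arrays (0 of 41, against 1.35% of all probe sets lower and 0.601% higher). The 95% confidence intervals included 0 for 40 of 41 genes, and for 40 of 41 they lay within 1.5-fold in either direction, so that larger changes were not covered by these intervals while smaller ones could not be told apart from 0.

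Between control siRNA and untreated arrays, 2 of 41 genes were called lower, CHAF1B and POLD1, and 0 were called higher, where 0.216% of all probe sets were called lower and 0.171% higher (0.387% in all). In all, 40 of 41 log2 fold changes lay below 0 (67.9% of all probe sets), with a median of -0.22 beside -0.056 over all probe sets and -0.037 over the brighter part of the array, the probe sets at or above the median signal. Of the 41 genes 19 had an unadjusted p under 0.05, all on the lower side, where 6.39% of all probe sets lay (2.18% on the higher side). For 24 of 41 every control siRNA array was below every untreated array, as for 5.85% of all probe sets, and for 0 of 41 every one was above (2.11%).

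Between SOX11 siRNA and untreated arrays, 6 of 41 genes were called lower (UHRF1, CDC45, CHAF1B, E2F1, LIG1 and GINS4) and 0 higher, where 1.6% of all probe sets were called lower and 0.805% higher (2.4% in all). Here 38 of 41 log2 fold changes lay below 0 (64.7% of all probe sets), with a median of -0.22 beside -0.058 over all probe sets and -0.016 over the brighter ones. At an unadjusted p under 0.05, 22 of 41 genes were lower and 0 higher (10.2% and 4.7% of all probe sets), and in 19 of 41 all SOX11 siRNA arrays were below all untreated arrays, with 0 of 41 above (5.54% and 2.3% of all probe sets). Each pair of the 3 comparisons shares a group of arrays, so their values are given side by side and a likeness between them is not a separate observation. In RNA of whole cultures, fewer cells in S phase and less RNA per cell cannot be told apart.

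**Figure D1:**
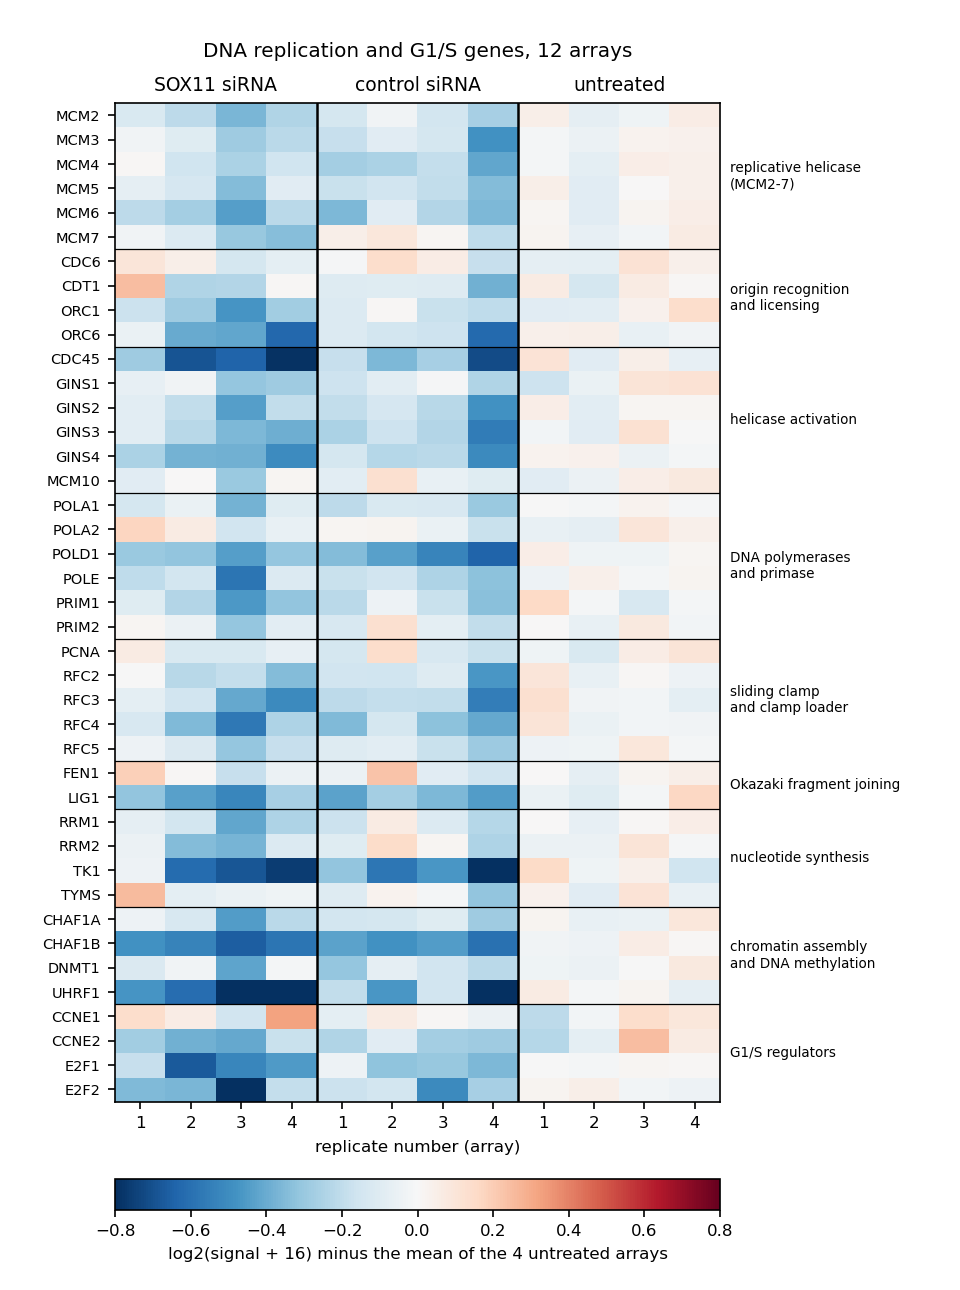
Log2(signal + 16) of each of the 41 genes on each array minus the mean of the 4 untreated arrays, in colour (blue lower, red higher), with SOX11 siRNA, control siRNA and untreated arrays left to right and genes grouped by role. SOX11 siRNA replicate 3 and control siRNA replicate 4 are blue for all 41 genes, and CHAF1B is blue on all 8 electroporated arrays.

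**Figure D2:**
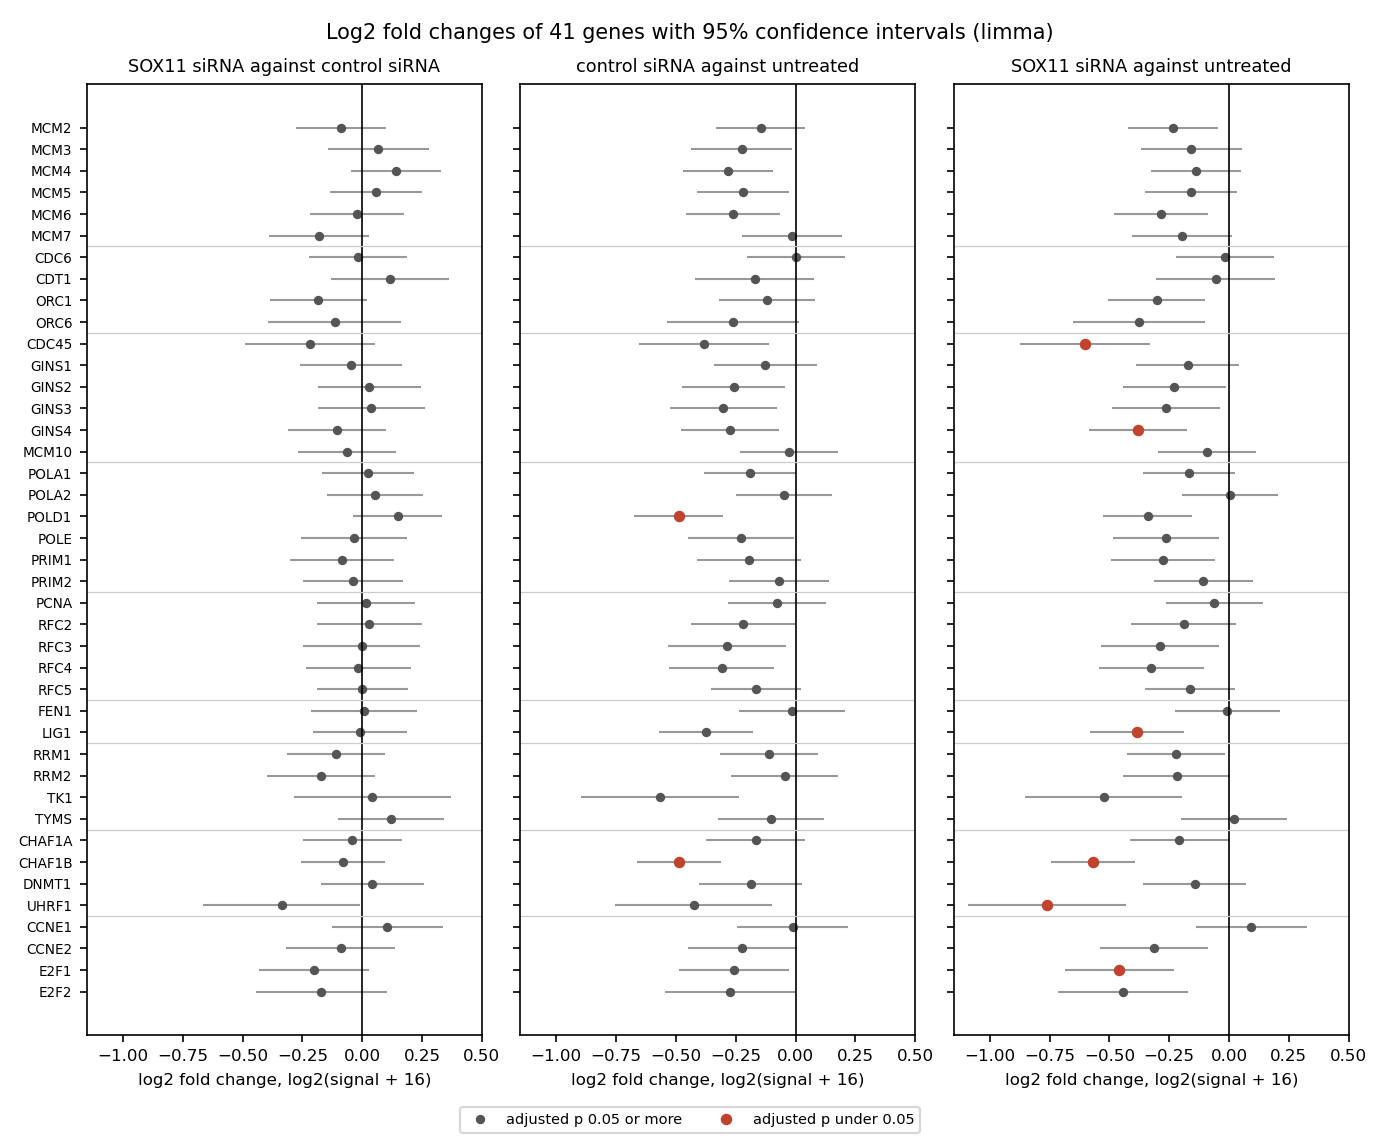
Log2 fold change of each gene (points) with its 95% confidence interval (lines) in the 3 comparisons, the first-named group over the second, with red points at an adjusted p under 0.05. Between SOX11 siRNA and control siRNA the points lie around 0, and in both comparisons with untreated cells most lie to its left, with 2 and 6 red points.

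The lower level was not the same on every array. As the median over the 41 genes of the difference from the untreated mean, the 4 SOX11 siRNA arrays gave -0.081, -0.20, -0.38 and -0.22, the 4 control siRNA arrays -0.17, -0.096, -0.16 and -0.33, and the 4 untreated arrays 0.0033, -0.06, 0.023 and 0.016 on the log2 scale. Replicate 3 of SOX11 siRNA and replicate 4 of control siRNA were lowest, with all 41 genes below the untreated mean, and SOX11 siRNA replicate 1 and control siRNA replicate 2 came nearest to untreated cells, with 32 and 29 genes below it. The same 2 low arrays had the lowest medians over all probe sets in their groups, -0.19 and -0.14 relative to untreated cells. SOX11 siRNA replicate 4 went the other way, with the second lowest level of the list in its group and the highest median over all probe sets (0.043).

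After quantile normalization, which gives every array the same distribution of signals, the 8 electroporated arrays came close together, at -0.21 to -0.25 with SOX11 siRNA and -0.14 to -0.19 with control siRNA, against -0.018 to 0.0069 in untreated arrays. With each array centred on its median instead, the values were -0.029 to -0.29 with SOX11 siRNA and -0.055 to -0.17 with control siRNA, and overlapped the untreated arrays (-0.11 to 0.10). The shift of all probe sets between SOX11 siRNA and untreated arrays was -0.058 as deposited, 0.0047 after quantile normalization and 0.045 after centring, and that of the 41 genes was -0.22, -0.24 and -0.12. Between control siRNA and untreated arrays all probe sets shifted by -0.056, -0.0014 and 0.024, and the 41 genes by -0.22, -0.19 and -0.14, with 40, 37 and 32 genes below 0. The median of the list was thus below that of all probe sets under each of the 3 scalings in both comparisons with untreated cells. For SOX11 siRNA against control siRNA the list's medians were -0.019, -0.052 and 0.0036, beside 0.0061, 0.0097 and 0.028 over all probe sets. There 24, 29 and 20 of the 41 genes lay below 0. An unadjusted p under 0.05 was reached by 1, 9 and 1 of them, and 0 were called under any of the 3 scalings. Without those 2 low arrays, a choice made after seeing the data, the list's medians were -0.16 for SOX11 siRNA against untreated cells (35 genes below 0, 5 called) and -0.15 for control siRNA against untreated cells (37 genes below 0, 2 called). Shares of all probe sets without these arrays are not given here, so those counts are not compared with the rest of the array.

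**Figure D3:**
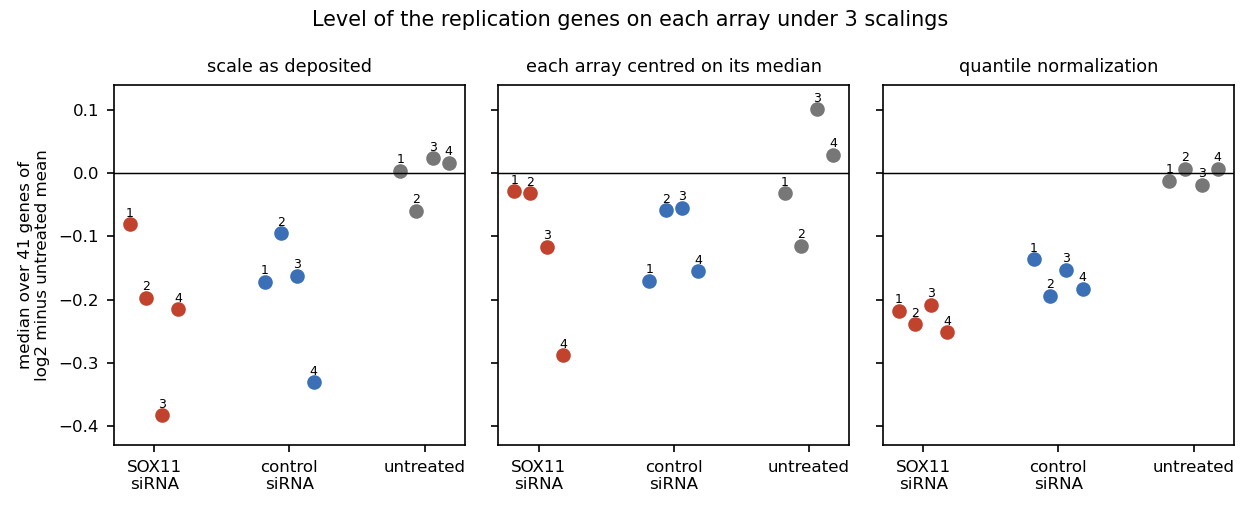
Median over the 41 genes of the difference from the untreated mean (log2 scale) for each array (points, numbered by replicate) with SOX11 siRNA, control siRNA and without treatment, under 3 scalings. All 8 electroporated arrays lie below the 4 untreated arrays on the scale as deposited and after quantile normalization, and the groups overlap after centring each array on its median.

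Letters of the E2F motif stood in the promoters of 20 of the genes. Most of these genes are known to be transcribed by E2F factors, so this share is not independent of their choice. Promoter windows of RefSeq (GRCh38.p14), which run 250 bases upstream to 50 bases downstream of an annotated start, were given for 37 of the 41 genes, and MCM4, MCM5, GINS4 and CCNE2 had no entry. They were searched on both strands for the E2F motif, spelled TTTCCCGC, TTTGGCGC, TTTGCCGC or TTTCGCGC, and for the NF-Y motif CCAAT, and overlapping matches were counted. E2F letters stood in a window of 20 of 37 genes (54.1%), against 3.99% of 27305 genes in the table and 3.31% of its 35116 windows. CCAAT stood in 21 of 37 (56.8%), against 39.7% of all genes. Of the other replication genes described further on, 19 of 49 (38.8%) had E2F letters, and of G2/M genes 2 of 28 (7.14%), while CCAAT stood in 57.1% and 75% of them. Within the list, genes with and without E2F letters had medians of -0.21 (20 genes) and -0.17 (17 genes) for control siRNA against untreated cells and -0.21 and -0.22 for SOX11 siRNA against untreated cells, on the log2 scale. A match is a description of letters, and windows without one say only that these letters are not in them.

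The upstream parts of 5 windows are shown, 5′ to 3′ in the direction of the gene, with the E2F letters in capitals: 3 of genes called lower with SOX11 siRNA against untreated cells that hold a match, MCM6 with the most matches in the list, and CHAF1B, the gene with the smallest p, which holds none. E2F1 (the minus strand of chr20:33686386-33686635) has 2 matches near its start, LIG1 (the minus strand of chr19:48170345-48170594) has 1, and UHRF1 (the plus strand of chr19:4909251-4909500, the first of 3 annotated starts) has 1. In MCM6 (the minus strand of chr2:135876444-135876693) the same stretch stands in 2 places and joins 2 overlapping matches each time, one per strand, and CHAF1B lies on the plus strand of chr21:36385142-36385391.
E2F1: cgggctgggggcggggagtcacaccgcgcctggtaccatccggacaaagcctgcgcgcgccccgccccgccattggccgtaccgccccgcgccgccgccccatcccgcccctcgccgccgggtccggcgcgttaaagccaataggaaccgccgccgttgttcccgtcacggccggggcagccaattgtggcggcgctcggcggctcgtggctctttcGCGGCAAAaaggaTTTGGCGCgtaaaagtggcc
LIG1: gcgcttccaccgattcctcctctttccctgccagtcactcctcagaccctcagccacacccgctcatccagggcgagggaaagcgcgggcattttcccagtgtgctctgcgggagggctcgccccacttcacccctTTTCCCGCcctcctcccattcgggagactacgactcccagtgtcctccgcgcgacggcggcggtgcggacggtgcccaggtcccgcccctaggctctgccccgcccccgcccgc
UHRF1: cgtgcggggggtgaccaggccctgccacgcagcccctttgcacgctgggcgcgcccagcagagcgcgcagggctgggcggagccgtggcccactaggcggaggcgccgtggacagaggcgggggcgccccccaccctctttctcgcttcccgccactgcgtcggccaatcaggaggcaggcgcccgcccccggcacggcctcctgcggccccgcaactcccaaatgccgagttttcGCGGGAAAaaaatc
MCM6: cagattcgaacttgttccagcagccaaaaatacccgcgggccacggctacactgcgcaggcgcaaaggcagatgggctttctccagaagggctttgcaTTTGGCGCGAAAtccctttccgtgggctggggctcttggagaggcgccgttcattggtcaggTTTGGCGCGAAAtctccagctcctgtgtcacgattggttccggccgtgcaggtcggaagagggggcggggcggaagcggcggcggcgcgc
CHAF1B: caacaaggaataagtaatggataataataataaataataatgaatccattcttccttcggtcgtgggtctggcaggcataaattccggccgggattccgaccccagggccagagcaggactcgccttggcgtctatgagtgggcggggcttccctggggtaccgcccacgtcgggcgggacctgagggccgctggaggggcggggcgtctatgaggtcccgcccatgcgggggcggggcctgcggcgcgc

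Of all probe sets, 0.183% were called for SOX11 siRNA against control siRNA. Against untreated cells 0.387% were called with control siRNA and 2.4% with SOX11 siRNA. At these shares, 0 calls among the few genes of a role does not set that role apart. The MCM2 to MCM7 proteins form the ring-shaped helicase that unwinds DNA at the fork, and 0 of 6 were called in any comparison. Their median log2 fold change was 0.017 for SOX11 siRNA against control siRNA, -0.22 for control siRNA against untreated cells (6 of 6 below 0) and -0.18 for SOX11 siRNA against untreated cells (6 of 6 below 0), and both medians against untreated cells stayed below 0 under the other 2 scalings. MCM2 had signals of 1247, 1171, 1051 and 1146 in SOX11 siRNA arrays, against 1229, 1331, 1223 and 1127 in control siRNA arrays and 1405, 1294, 1323 and 1412 in untreated arrays. MCM3 had 1862, 1774, 1554 and 1634 in SOX11 siRNA arrays, against 1672, 1782, 1719.6 and 1356 in control siRNA arrays and 1882, 1840.1, 1934 and 1943 in untreated arrays. MCM4 had 1351, 1199, 1122 and 1200.5 in SOX11 siRNA arrays, against 1109, 1124, 1172 and 1002 in control siRNA arrays and 1326, 1268, 1391 and 1379.7 in untreated arrays. In MCM3 and MCM4 every control siRNA array was below every untreated array, and 1 SOX11 siRNA array, replicate 1, was within the untreated range, while in MCM2 the SOX11 siRNA arrays lay apart from the untreated ones and the control siRNA arrays overlapped them. MCM5 had 1518, 1456, 1253 and 1503 in SOX11 siRNA arrays, against 1414, 1437, 1393 and 1252 in control siRNA arrays and 1652, 1498, 1604 and 1645 in untreated arrays. MCM6 had 1561, 1499, 1327 and 1559.7 in SOX11 siRNA arrays, against 1410.5, 1696, 1533 and 1408 in control siRNA arrays and 1827, 1699, 1839.8 and 1880.4 in untreated arrays. MCM7, the brightest probe set of the list, had 2828, 2674, 2337 and 2278 in SOX11 siRNA arrays, against 2980.1, 3075, 2915 and 2501 in control siRNA arrays and 2935, 2759, 2839 and 3021 in untreated arrays. MCM6 was below untreated cells on all 8 electroporated arrays, and in MCM7 the control siRNA arrays lay on both sides of the untreated range. The widest fold change of the 6 was that of MCM6 with SOX11 siRNA against untreated cells, -0.28 (95% confidence interval -0.48 to -0.088, adjusted p = 0.137), and next came MCM4 with control siRNA against untreated cells, -0.28 (95% confidence interval -0.47 to -0.093, adjusted p = 0.29). For MCM7 the fold change of SOX11 siRNA against control siRNA was -0.18 (95% confidence interval -0.39 to 0.027, adjusted p = 1).

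Origin recognition and licensing, which mark the sites and load the helicase, gave 0 calls among 4 genes. ORC1, the largest subunit of the origin recognition complex, had signals of 480.0, 442, 386 and 445 in SOX11 siRNA arrays, against 503, 547, 479 and 469 in control siRNA arrays and 509, 511, 557 and 600.3 in untreated arrays. Its SOX11 siRNA arrays were all below the untreated arrays, and 1 of them was above the 2 lowest control siRNA arrays. The fold changes were -0.18 (95% confidence interval -0.38 to 0.019, adjusted p = 1) for SOX11 siRNA against control siRNA and -0.30 (95% confidence interval -0.50 to -0.10, adjusted p = 0.123) against untreated cells. ORC6, the smallest subunit, had a fold change of -0.26 (95% confidence interval -0.54 to 0.016) for control siRNA against untreated cells and -0.38 (95% confidence interval -0.65 to -0.10) for SOX11 siRNA against untreated cells, on signals of 558 to 841 with SOX11 siRNA, 562 to 806 with control siRNA and 838 to 902 without treatment. CDC6 and CDT1, the loading factors, had intervals that included 0 in all 3 comparisons. CDC6 averaged 991 ± 76.2, 1006 ± 94.8 and 1003 ± 66.3 in SOX11 siRNA, control siRNA and untreated arrays (SD, n = 4 each), with intervals that bound its change against untreated cells to -0.20 to 0.21 with control siRNA and -0.22 to 0.19 with SOX11 siRNA. CDT1 averaged 337 ± 58.5, 308 ± 30.3 and 348 ± 24 in the same order.

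Among the factors that activate the helicase, CDC45 and GINS4 fell with SOX11 siRNA against untreated cells, and 0 of 6 genes were called in the other comparisons. CDC45, a partner of the moving helicase, had signals of 527, 395, 409 and 367 in SOX11 siRNA arrays, against 567, 499, 535 and 387 in control siRNA arrays and 699, 606, 667 and 616 in untreated arrays. All 8 electroporated arrays were below the untreated ones, and replicate 4 was the lowest of both siRNA groups. Its fold changes were -0.60 (95% confidence interval -0.87 to -0.33, adjusted p = 0.0208) for SOX11 siRNA against untreated cells, -0.38 (95% confidence interval -0.65 to -0.11, adjusted p = 0.345) for control siRNA against untreated cells and -0.22 (95% confidence interval -0.49 to 0.052, adjusted p = 1) for SOX11 siRNA against control siRNA. The first was called in 20 of 25 alternative settings and was lost without SOX11 siRNA replicate 2, without untreated replicate 1 or 3, with log2(signal + 1) and with the methods' analysis of variance, at an adjusted p of at most 0.0816. GINS4, a subunit of the GINS complex, had 281, 256, 255 and 233 in SOX11 siRNA arrays, against 305, 286, 289 and 232 in control siRNA arrays and 345, 347, 327 and 334 in untreated arrays. Both siRNA groups lay below the untreated arrays and overlapped each other. The fold change of SOX11 siRNA against untreated cells was -0.38 (95% confidence interval -0.58 to -0.18, adjusted p = 0.0498), a call made in 10 of 25 alternative settings and lost without any of 10 single arrays, with an adjusted p of at most 0.148. GINS1, GINS2 and GINS3 had fold changes of -0.13, -0.26 and -0.30 for control siRNA against untreated cells and -0.17, -0.23 and -0.26 for SOX11 siRNA against untreated cells, with adjusted p of 0.243 or more. MCM10, which helps to switch the helicase on, averaged 893 ± 87.8 with SOX11 siRNA, 932 ± 72.4 with control siRNA and 950.2 ± 53.1 in untreated cells (SD, n = 4 each), and its intervals included 0 in all 3 comparisons.

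Of the polymerases, POLD1, the catalytic subunit of the lagging strand polymerase delta, fell with control siRNA against untreated cells. POLD1 had signals of 202, 199, 181 and 199 in SOX11 siRNA arrays, against 194, 181, 169 and 155 in control siRNA arrays and 261, 245, 245 and 254 in untreated arrays. The untreated arrays lay above all others, and 3 of 4 SOX11 siRNA arrays were above every control siRNA array. Its fold changes were -0.49 (95% confidence interval -0.67 to -0.30, adjusted p = 0.0199) for control siRNA, a mean 30.4% below untreated cells, and -0.34 (95% confidence interval -0.53 to -0.15, adjusted p = 0.0537) for SOX11 siRNA, against untreated cells, and 0.15 (95% confidence interval -0.037 to 0.33, adjusted p = 1) between SOX11 siRNA and control siRNA. The call with control siRNA was lost without control siRNA replicate 3 or 4 or without any 1 of the untreated arrays, with an adjusted p of at most 0.0891. POLE, the catalytic subunit of the leading strand polymerase epsilon, had fold changes of -0.23 (95% confidence interval -0.45 to -0.0061) for control siRNA and -0.26 (95% confidence interval -0.48 to -0.041) for SOX11 siRNA against untreated cells. The primase subunit PRIM1, which makes the RNA primers, gave -0.19 (95% confidence interval -0.41 to 0.023) and -0.28 (95% confidence interval -0.49 to -0.06) in the same comparisons, and its partner PRIM2 -0.068 (95% confidence interval -0.28 to 0.14) and -0.11 (95% confidence interval -0.32 to 0.10). Polymerase alpha, which extends those primers, gave -0.19 (95% confidence interval -0.38 to 0.0014) and -0.17 (95% confidence interval -0.36 to 0.024) for POLA1 and -0.05 (95% confidence interval -0.25 to 0.15) and 0.005 (95% confidence interval -0.20 to 0.21) for POLA2.

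The sliding clamp PCNA, which tethers polymerases to DNA, was called in none of the 3 comparisons. PCNA had signals of 2600.4, 2275, 2283 and 2369.6 in SOX11 siRNA arrays, against 2250.2, 2733, 2273 and 2189 in control siRNA arrays and 2419, 2281, 2586 and 2662 in untreated arrays. The 3 groups overlapped, and control siRNA replicate 2 was the highest of all 12 arrays. Fold changes were -0.077 (95% confidence interval -0.28 to 0.13) for control siRNA and -0.061 (95% confidence interval -0.27 to 0.14) for SOX11 siRNA against untreated cells. The subunits RFC2, RFC3, RFC4 and RFC5 of the clamp loader, which opens the ring and sets it on DNA, had fold changes of -0.22, -0.29, -0.31 and -0.16 for control siRNA and -0.19, -0.29, -0.32 and -0.16 for SOX11 siRNA against untreated cells, none of them called. In RFC2, RFC3, RFC4 and RFC5 every control siRNA array was below every untreated array, and RFC4 had the smallest p of the loader in both comparisons (adjusted p = 0.345 with control siRNA and 0.13 with SOX11 siRNA).

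The enzymes that join Okazaki fragments, the short pieces of the lagging strand, gave unlike values. LIG1, the DNA ligase that seals them, had signals of 281, 259, 242 and 292 in SOX11 siRNA arrays, against 259, 291, 273 and 256 in control siRNA arrays and 342, 330.3, 349.9 and 399 in untreated arrays. Both siRNA groups lay below the untreated arrays and covered nearly the same range. The fold changes against untreated cells were -0.38 (95% confidence interval -0.58 to -0.19, adjusted p = 0.0402) for SOX11 siRNA and -0.38 (95% confidence interval -0.57 to -0.18, adjusted p = 0.117) for control siRNA, and -0.0086 (95% confidence interval -0.21 to 0.19) between the siRNA groups. The call with SOX11 siRNA held in 11 of 25 alternative settings and was lost without any of 9 single arrays, with an adjusted p of at most 0.135. FEN1, the nuclease that trims the flaps before ligation, averaged 2256 ± 246 with SOX11 siRNA, 2247 ± 275 with control siRNA and 2259 ± 79 in untreated cells (SD, n = 4 each), and its fold changes against untreated cells were -0.0075 (95% confidence interval -0.23 to 0.21) for SOX11 siRNA and -0.015 (95% confidence interval -0.24 to 0.21) for control siRNA.

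Of the enzymes that supply deoxynucleotides, 0 of 4 were called. TK1, the thymidine kinase of the salvage pathway, had signals of 1189.7, 793, 754 and 717 in SOX11 siRNA arrays, against 979, 816, 881 and 643 in control siRNA arrays and 1364, 1192, 1260.0 and 1092 in untreated arrays. Every control siRNA array was below every untreated array, while SOX11 siRNA replicate 1 reached the untreated range and the other 3 lay below it. TK1 had the widest fold change of the list for control siRNA against untreated cells, -0.57 (95% confidence interval -0.90 to -0.24, adjusted p = 0.169), and -0.52 (95% confidence interval -0.85 to -0.20, adjusted p = 0.098) for SOX11 siRNA, with the wide intervals of its spread within groups. TYMS, which makes thymidylate from deoxyuridylate, averaged 1617 ± 186 with SOX11 siRNA, 1485 ± 151 with control siRNA and 1589 ± 101 in untreated cells (SD, n = 4 each). The ribonucleotide reductase subunits RRM1 and RRM2, which together make deoxynucleotides, had fold changes of -0.22 (95% confidence interval -0.43 to -0.015) and -0.22 (95% confidence interval -0.44 to 0.006) for SOX11 siRNA against untreated cells and -0.11 (95% confidence interval -0.32 to 0.094) and -0.046 (95% confidence interval -0.27 to 0.18) for control siRNA against untreated cells.

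The factors that restore chromatin and DNA methylation behind the fork had the lowest median log2 fold change of the 9 roles, -0.39 for SOX11 siRNA and -0.31 for control siRNA against untreated cells, also under the other 2 scalings. With SOX11 siRNA the G1/S regulators were nearly as low, at -0.38, and each of these 2 roles holds 4 genes. CHAF1B, the middle subunit of chromatin assembly factor 1, which places new histones on replicated DNA, had signals of 366, 353, 322 and 341 in SOX11 siRNA arrays, against 382, 367, 377 and 337 in control siRNA arrays and 508, 503, 542 and 523 in untreated arrays. All 8 electroporated arrays were below all 4 untreated ones, and the siRNA groups overlapped. CHAF1B fell by 33.5% with SOX11 siRNA and by 29.6% with control siRNA against the untreated mean, fold changes of -0.57 (95% confidence interval -0.74 to -0.39, adjusted p = 0.00134) and -0.49 (95% confidence interval -0.66 to -0.31, adjusted p = 0.0128). Between SOX11 siRNA and control siRNA it was -0.079 (95% confidence interval -0.25 to 0.10). The call with SOX11 siRNA held in all 25 alternative settings, and that with control siRNA in 21, being lost with each array centred on its median and without control siRNA replicate 4, untreated replicate 3 or untreated replicate 4 (adjusted p of at most 0.0611). Its partner CHAF1A, the largest subunit, had fold changes of -0.21 (95% confidence interval -0.42 to -0.00093) and -0.17 (95% confidence interval -0.37 to 0.041) in the same comparisons.

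UHRF1, which reads hemimethylated DNA after replication and brings in the methyltransferase DNMT1, had signals of 595, 538, 448 and 381 in SOX11 siRNA arrays, against 721, 596, 745 and 445 in control siRNA arrays and 871, 820.1, 843 and 791 in untreated arrays. Untreated arrays were highest, the siRNA groups overlapped, and within each of them the values spread widely, with replicate 4 lowest in both. UHRF1 fell by 41% with SOX11 siRNA against untreated cells, a fold change of -0.76 (95% confidence interval -1.09 to -0.43, adjusted p = 0.0162), and this call was lost without untreated replicate 1 (adjusted p = 0.0545), with log2(signal + 1) and with the methods' analysis of variance (adjusted p of at most 0.0864). The fold changes were -0.43 (95% confidence interval -0.75 to -0.10, adjusted p = 0.423) for control siRNA against untreated cells and -0.34 (95% confidence interval -0.66 to -0.007, adjusted p = 1) for SOX11 siRNA against control siRNA. A second, dimmer UHRF1 probe set (mean signal 203, against 649.7 for the one used) varied with the first at r = 0.25 over 12 arrays, as a description, and with the mean of both probe sets in its place the call against untreated cells was lost. DNMT1, which copies the methylation pattern to the new strand, averaged 928 ± 116 with SOX11 siRNA, 897 ± 64.4 with control siRNA and 1021 ± 40.5 in untreated cells (SD, n = 4 each), with fold changes against untreated cells of -0.14 (95% confidence interval -0.36 to 0.071) for SOX11 siRNA and -0.19 (95% confidence interval -0.40 to 0.028) for control siRNA.

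Of the G1/S regulators, E2F1 fell with SOX11 siRNA against untreated cells. E2F1 and E2F2 had mean signals of 163 and 132 over the 12 arrays. Some markers of other cell types reached that level, among them KRT8 (256), COL1A1 (186) and KRT18 (142), while most were dimmer. E2F1, an activator of the replication genes, had signals of 168, 115, 129 and 136 in SOX11 siRNA arrays, against 187, 151, 153 and 147 in control siRNA arrays and 192, 190.0, 195 and 194 in untreated arrays. The untreated arrays lay within 190.0 to 195 and above all others, and the siRNA groups overlapped. Fold changes were -0.46 (95% confidence interval -0.69 to -0.23, adjusted p = 0.0352) for SOX11 siRNA and -0.26 (95% confidence interval -0.49 to -0.028, adjusted p = 0.506) for control siRNA against untreated cells, and -0.20 (95% confidence interval -0.43 to 0.027, adjusted p = 1) between SOX11 siRNA and control siRNA. The call held in 12 of 25 alternative settings and was lost without any of 8 single arrays, with an adjusted p of at most 0.107. E2F2, a related activator and the dimmest probe set of the list, had 118, 117, 78.9 and 135 in SOX11 siRNA arrays, against 137, 139.8, 105 and 127 in control siRNA arrays and 159, 161, 153 and 151 in untreated arrays. Its electroporated arrays were all below the untreated ones, with fold changes of -0.44 (95% confidence interval -0.71 to -0.17, adjusted p = 0.0917) for SOX11 siRNA and -0.27 (95% confidence interval -0.54 to -0.00052, adjusted p = 0.581) for control siRNA.

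The cyclins E, which activate CDK2 at the start of S phase, were called in none of the 3 comparisons. CCNE1 had signals of 322, 305, 260.3 and 367 in SOX11 siRNA arrays, against 275, 306, 293 and 282 in control siRNA arrays and 250.1, 286, 323 and 311 in untreated arrays. It was the gene with the highest fold change against untreated cells with SOX11 siRNA, 0.093 (95% confidence interval -0.14 to 0.32, adjusted p = 0.729), and gave -0.012 (95% confidence interval -0.24 to 0.22, adjusted p = 0.987) with control siRNA. CCNE2 had 299, 276, 271 and 322 in SOX11 siRNA arrays, against 306, 342, 299.9 and 297 in control siRNA arrays and 309, 346, 436 and 383 in untreated arrays. SOX11 siRNA arrays lay below 3 of 4 untreated arrays, and the groups overlapped through untreated replicate 1. Its fold changes were -0.31 (95% confidence interval -0.54 to -0.086, adjusted p = 0.159) for SOX11 siRNA and -0.22 (95% confidence interval -0.45 to 0.0042, adjusted p = 0.592) for control siRNA against untreated cells.

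**Figure D4:**
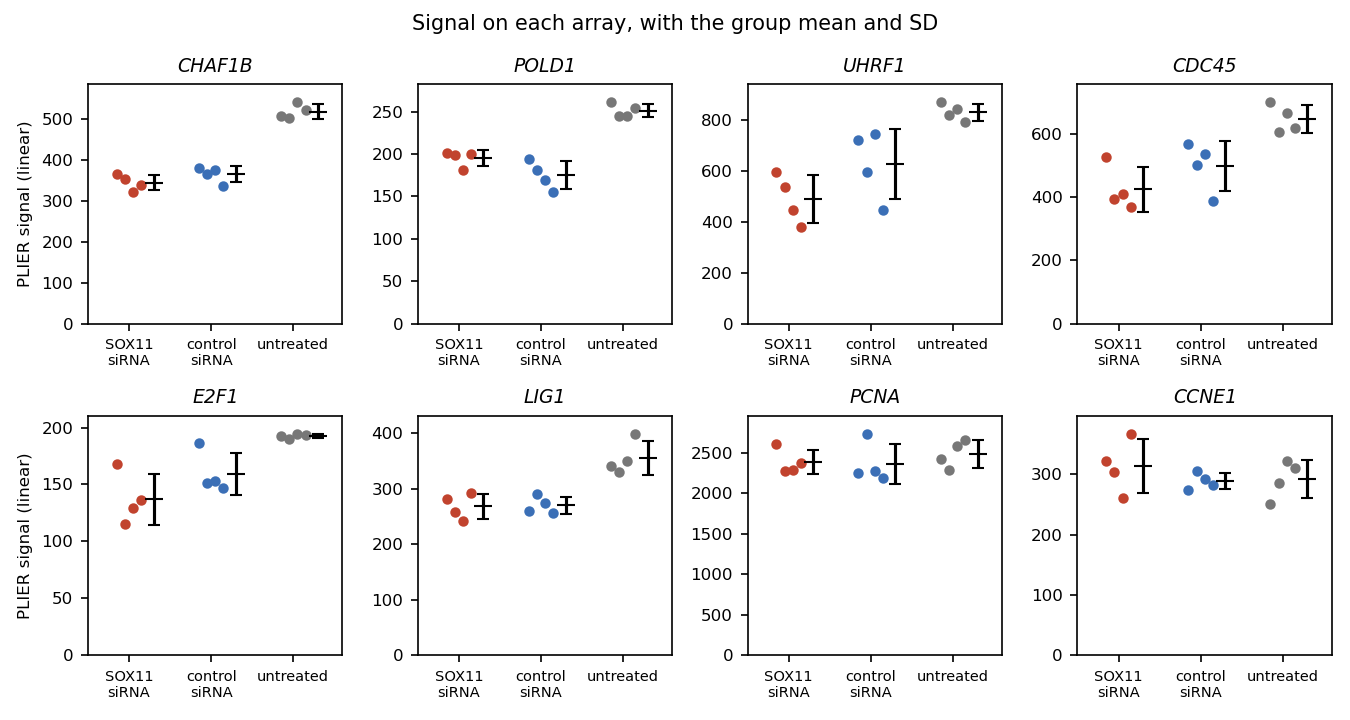
PLIER signal (linear axis from 0) of 8 genes on the 4 arrays of each group, SOX11 siRNA, control siRNA and untreated left to right, with the group mean and SD as black bars. CHAF1B, POLD1, UHRF1, CDC45, E2F1 and LIG1 have all untreated arrays above all electroporated ones, and the groups overlap for PCNA and CCNE1.

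Within groups the genes varied together from array to array. As Pearson's r of deviations from the group means over 12 arrays, the 820 pairs of the 41 genes had a median of 0.62, between -0.22 and 0.96, and 95.6% of them lay above 0. These arrays share their scale, and pairs of probe sets at or above the median signal had a median r of 0.39, so the values are a description. The closest pairs were GINS4 with ORC6, POLA2 with RFC5 and CDC45 with TK1, each at 0.96. GINS2 had the highest median r with the other genes (0.79), followed by MCM3 (0.76) and RRM1 (0.75). The 4 G1/S regulators had the lowest, at 0.36 for E2F1, 0.37 for CCNE2, 0.39 for E2F2 and 0.45 for CCNE1, and E2F2 and E2F1 were also the dimmest probe sets. G2/M genes had a median r of 0.73 among themselves and the other replication genes 0.61.

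**Figure D5:**
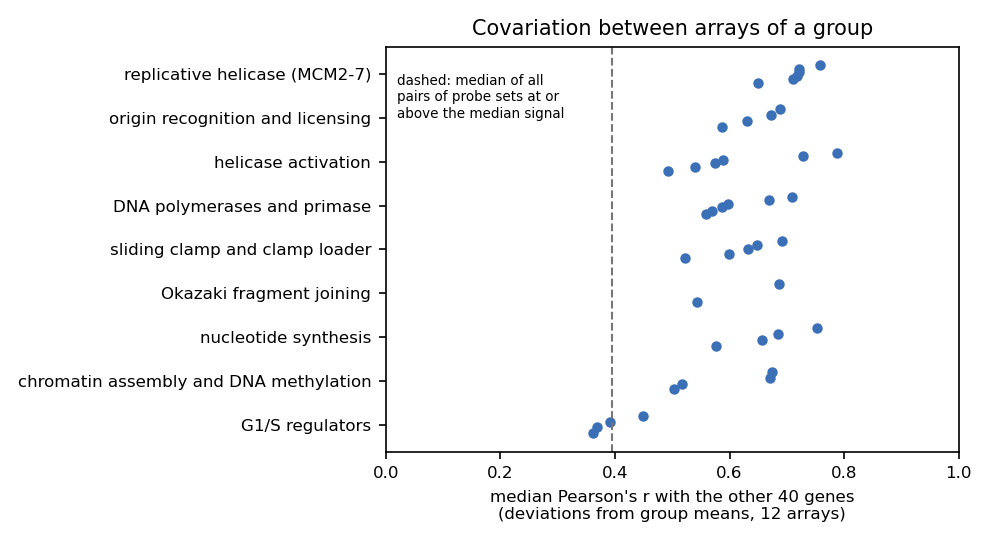
Median Pearson's r of each gene with the other 40 genes (points), from log2 deviations from group means over 12 arrays, by role, with the median over all pairs of probe sets at or above the median signal as a dashed line at 0.39. The 4 G1/S regulators lie lowest, at 0.36 to 0.45, and GINS2 highest at 0.79.

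Other genes of replication and S phase, 63 measured outside the list, had medians nearer to 0 against untreated cells. Both lists were drawn up with earlier results of these data known. For SOX11 siRNA against control siRNA 1 of 63 was called, where 0.183% of all probe sets were, and the median was 0.019. The called gene was TFDP2, which pairs with E2F proteins to bind DNA. TFDP2 had signals of 509.7, 463, 351 and 425 in SOX11 siRNA arrays, against 658, 797, 702 and 636 in control siRNA arrays and 814, 791, 829 and 829 in untreated arrays. Its SOX11 siRNA arrays lay below all others, with fold changes of -0.66 (95% confidence interval -0.90 to -0.43, adjusted p = 0.0173) against control siRNA and -0.89 (95% confidence interval -1.12 to -0.65, adjusted p = 0.000454) against untreated cells. The call against untreated cells held in all 25 alternative settings, and that against control siRNA in 19, being lost without control siRNA replicate 1, 2 or 3, with log2(signal + 1), in the fit of the 8 arrays compared and with the methods' analysis of variance (adjusted p of at most 0.108). TFDP2 is also among the genes that the study listed from these arrays, so its fall is not independent evidence. Next by p were DTYMK, a thymidylate kinase, at -0.41 (95% confidence interval -0.68 to -0.14, adjusted p = 0.58), the nuclease and helicase DNA2 at -0.27 (95% confidence interval -0.46 to -0.071, adjusted p = 0.778), and the histone chaperone NASP at -0.32 (95% confidence interval -0.56 to -0.08, adjusted p = 0.824). Against untreated cells DNA2 and NASP fell with SOX11 siRNA, DNA2 to a mean of 385 ± 32.5 against 545 ± 25.2 in untreated arrays (adjusted p = 0.0102) and NASP to 1078 ± 161 against 1564 ± 73.3 (adjusted p = 0.0199; SD, n = 4 each). The DNA2 call held in all 25 alternative settings, and that of NASP in 18, being lost without SOX11 siRNA replicate 2 or untreated replicate 1, 3 or 4, with median centring, with log2(signal + 1) and with the methods' analysis of variance (adjusted p of at most 0.069). With TFDP2 these were the 3 of 63 called for SOX11 siRNA against untreated cells, where 1.6% of all probe sets were called lower. The median there was -0.073, and 41 of 63 lay below 0 (64.7% of all probe sets). For control siRNA against untreated cells 0 of 63 were called, and 8 had an unadjusted p under 0.05 on the lower side (6.39% of all probe sets). Below 0 lay 48 of 63 (67.9% of all probe sets), and the median was -0.11. The smallest p were those of DUT (-0.30), which removes uracil nucleotides, the S phase kinase CDK2 (-0.25) and the transcription factor MYBL2 (-0.25).

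G2/M and mitosis genes, 35 measured, gave medians of 0.021 for SOX11 siRNA against control siRNA, -0.14 for control siRNA against untreated cells (33 of 35 below 0) and -0.15 for SOX11 siRNA against untreated cells (28 of 35 below 0). Called were 2 of 35, both lower with SOX11 siRNA against untreated cells, where 1.6% of all probe sets were called lower. They were CENPF, a kinetochore protein (-0.52 (95% confidence interval -0.76 to -0.27, adjusted p = 0.0257)), and MKI67, the Ki-67 antigen of cycling cells (-0.44 (95% confidence interval -0.68 to -0.21, adjusted p = 0.0458)). The CENPF call held in 18 of 25 alternative settings and was lost without any 1 of the untreated arrays, with log2(signal + 1), in the fit of 8 arrays and with the methods' analysis of variance (adjusted p of at most 0.0755). That of MKI67 held in 10 of 25 and was lost without any of 9 single arrays and under 6 other settings, median centring and the replicate block among them (adjusted p of at most 0.142). MKI67 had signals of 674, 755, 693 and 719 in SOX11 siRNA arrays, against 683, 744, 844 and 595 in control siRNA arrays and 967, 841, 1043 and 1049.7 in untreated arrays. SOX11 siRNA arrays lay below all untreated arrays, and 1 control siRNA array, replicate 3, reached the lowest untreated one. With control siRNA against untreated cells MKI67 gave -0.44 (95% confidence interval -0.68 to -0.21, adjusted p = 0.121), and NDC80 and NUF2, parts of the complex that holds microtubules at the kinetochore, -0.42 (95% confidence interval -0.65 to -0.18, adjusted p = 0.159) and -0.27 (95% confidence interval -0.46 to -0.085, adjusted p = 0.315). For SOX11 siRNA against control siRNA the smallest p were those of CENPF (-0.29), the mitotic kinesin KIF20A (-0.22) and the checkpoint kinase BUB1B (-0.19), with 0 of 35 called.

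Of the markers of other cell types, KRT18, a keratin of epithelial cells, differed between SOX11 siRNA and untreated arrays. It averaged 163 ± 25.5 with SOX11 siRNA, 159.7 ± 8.62 with control siRNA and 104 ± 18 in untreated cells (SD, n = 4 each). KRT18 rose with SOX11 siRNA against untreated cells (adjusted p = 0.0203, and 0.062 with control siRNA), a call made in 17 of 25 alternative settings. The call was lost without SOX11 siRNA replicate 2 or untreated replicate 1, 2 or 3 (adjusted p of at most 0.0753). It was also lost with log2(signal + 1), in the fit of the 8 arrays compared, with the methods' analysis of variance and with the mean of its probe sets (adjusted p of at most 0.102). KRT18 was 1 of 5 epithelial markers called, where 0.805% of all probe sets were called higher. The summed signal of the 5 was 473 to 664 with SOX11 siRNA, 483 to 639 with control siRNA and 479 to 557 in untreated arrays. Of 9 T and NK cell, 8 myeloid and 5 fibroblast markers, 0 were called in any comparison, with summed signals of 369 to 535, 322 to 445 and 266 to 373 over all arrays, and no marker was at 0. CD22, a surface protein of B cells, fell in both siRNA groups against untreated cells, to 673 ± 69.6 with SOX11 siRNA and 648 ± 27.8 with control siRNA, against 944 ± 47.9 in untreated arrays (SD, n = 4 each; adjusted p = 0.0118 and 0.0169). The CD22 call with SOX11 siRNA held in all 25 alternative settings, and that with control siRNA in 19, being lost with log2(signal + 1) and without control siRNA replicate 3 or 4 or untreated replicate 1, 3 or 4 (adjusted p of at most 0.0798). The part of these markers in the results for replication genes was not tested.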

How the data were processed

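The authors deposited 1 intensity per probe set and array, on a linear scale, computed by PLIER (Expression Console 1.1) after GC background correction and scaled to a global median, per the file headers. The genome build was not given in the sources used here. The 2 deposited tables differed in 0 cells, and 12 further columns of group means, signed fold changes and p-values were not used. For the paper itself the arrays were normalized by RMA and compared by analysis of variance.

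Log2(signal + 16) of all 33297 probe sets was fitted with limma 3.58.1 in R 4.3.3, 3 groups of 4 arrays together, with no filter and Benjamini-Hochberg adjustment, and a call was an adjusted p under 0.05. Fold changes on this scale understate those of dim genes. Of the probe sets, 19460 list 1 symbol, 1754 several and 12083 none, and 19429 were matched by gene ID with 0 symbols changed. The fit was tested on simulated data.

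The 41 genes and the other lists were chosen with earlier results of these data known. Values per array were given for genes called in any comparison, the 4 with the smallest p in each, MCM2 to MCM7, PCNA, the cyclins E, E2F1, E2F2 and the brightest and dimmest gene; of other lists, called genes or else the 3 with the smallest p. Genes of the other lists with no probe set of 1 symbol were left out. The alternatives were quantile normalization, median centring, log2(signal + 1), a filter on dim probe sets, probe sets with 1 symbol alone, the methods' analysis of variance, a fit of 8 arrays, a trended robust prior, weights per array, a replicate block (also after quantile normalization), the mean of a gene's probe sets, and each array left out, with 1 alternative added after seeing the data, 25 in all. Arrays have no read depth, and 4 per group limit the precision.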

Additional observations from a re-analysis of the deposited data

Results flagged for a closer look

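In groups of 4 arrays a single array stood far from the other 3 in 9 of 126 groups tested, and chance gives about 1 in 20. Among SOX11 siRNA arrays, TK1 was high in replicate 1 (1189.7, against 717 to 793 in the others), TYMS was high in replicate 1 (1894, against 1499.6 to 1547) and POLD1 was low in replicate 3 (181, against 199 to 202). Among control siRNA arrays, replicate 4 was low for ORC6 (562, against 777 to 806), RFC3 (1253, against 1594 to 1618) and CDT1 (262, against 322 to 324). Control siRNA replicate 2 was high for PCNA (2733, against 2189 to 2273) and MCM10 (1039.8, against 886 to 909), and replicate 1 was high for E2F1 (187, against 147 to 153).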

How the results depend on the processing

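For SOX11 siRNA against control siRNA 0 of 41 genes were called in any of the 25 alternatives, and those below 0 numbered 15 to 33 with 1 array left out, against 24; the 15 came without SOX11 siRNA replicate 3 and the 33 without control siRNA replicate 4. For control siRNA against untreated cells 2 were called; 6 were called after quantile normalization, 1 with median centring, 7 when quantile normalization was joined by the replicate block, and 0 to 2 with 1 array left out. It was 0 without control siRNA replicate 4, untreated replicate 3 or untreated replicate 4. For SOX11 siRNA against untreated cells 6 were called; 21 were called after quantile normalization, 3 with median centring, 1 with log2(signal + 1), 3 in the fit of the 8 arrays compared, 3 with the methods' analysis of variance, 20 when quantile normalization was joined by the replicate block, and 1 to 7 with 1 array left out. The cause of these differences was not tested. As deposited, 0.387% of all probe sets were called for control siRNA and 2.4% for SOX11 siRNA against untreated cells. The number of all probe sets called also moved with the setting, as given below for quantile normalization and centring. A count of the list is therefore read beside that of all probe sets in the same setting. As deposited, 6 of 41 genes were called lower for SOX11 siRNA against untreated cells, where 1.6% of all probe sets were. For control siRNA against untreated cells these were 2 of 41 and 0.216%. Where no count of all probe sets is given here, the list's count is not compared with the array.

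Whether the replicate numbers pair the samples was not settled. Same-numbered arrays of the siRNA groups had correlations of deviations of -0.018 to 0.115, and differently numbered ones -0.306 to 0.182. Between control siRNA and untreated arrays the same-numbered values ran from -0.251 to 0.289. Low correlations over all probe sets cannot show that samples were not paired. The replicate block gave 0 calls among the 41 genes between the siRNA groups, 3 for control siRNA and 5 for SOX11 siRNA against untreated cells. Counts of all probe sets against untreated cells with the block are not given here. Quantile normalization and centring also moved the whole array: for SOX11 siRNA against untreated cells 268 probe sets were called higher and 532 lower as deposited, 1266 and 1112 after quantile normalization, and 938 and 383 after centring. With control siRNA against untreated cells the counts were 57 and 72, 352 and 292, and 126 and 56. For SOX11 siRNA against control siRNA they were 1 and 60, 25 and 200, and 5 and 77. No called gene changed sign in any alternative. Each comparison had 1025 values, those of all 41 genes in the 25 alternatives. Sign changes, none with a call, numbered 71 for SOX11 siRNA against control siRNA, and 32 for control siRNA and 26 for SOX11 siRNA against untreated cells. All 41 genes had mean signals above the highest array median, E2F2 least so.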
